A study of Mus musculus with 8 samples.

Results

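Transcripts of 9 receptors through which hormones act on bone cells were followed in cultures of osteoblastic cells from mouse skulls. The 9 genes were Pth1r, Vdr, Nr3c1, Esr1, Thra, Thrb, Rara, Rarb and Rarg, taken by symbol from the 24421 genes of the files. They were selected on their role as hormone receptors and on earlier results of the same libraries, that is the CPM values and differences between the 4 groups, with Thrb named for them, so that their levels, differences and calls are given as a description with no test. Each gene was measured by RNA-seq in 8 libraries, 2 for each of 4 groups. The groups were WT cells at day 0, Def6-/- cells at day 0, WT cells at day 12 and Def6-/- cells at day 12. All cells came from newborn mice of 0 to 3 days of age on the C57BL/6 strain. Calvarial bone was digested with collagenase and dispase, and the released cells were expanded in medium free of ascorbic acid. Osteogenic medium, which adds ascorbic acid and β-glycerophosphate, was then given to both genotypes for 12 days. Def6-/- mice lack Def6 in every cell of the body and had been backcrossed to the C57/BL6 background, with WT littermates as controls. The sources used here do not say whether a library came from 1 animal or from several, and no step that removed blood-derived cells is given for these libraries.

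Parathyroid hormone acts on osteoblasts through Pth1r, a receptor of the cell surface that raises cyclic AMP and activates protein kinase A. The other 8 genes encode nuclear receptors, proteins that bind DNA and switch transcription when their small, fat-soluble ligand arrives. The receptors for vitamin D, thyroid hormone and retinoic acid bind DNA mostly as pairs with a retinoid X receptor, while the glucocorticoid and estrogen receptors bind mostly as pairs of themselves.

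The libraries held between 2414856 and 3482837 reads on genes, which were 28.8% to 35.3% of all reads. Def6, the deleted gene, had 112 to 186 reads in the 4 WT libraries and 0 to 2 reads in the 4 Def6-/- libraries. Levels are given as normalized CPM, in which the reads of a gene are scaled to all reads on genes of the library after correction for its composition. WT replicate 1 at day 0 stood apart from the other day 0 libraries. Its median distance from them over the tested genes was 0.42 to 0.51 on the log2 scale, against 0.16 to 0.24 among the other 3 libraries, and 34.9% of its reads were not uniquely placed, against 21.4% to 26.6% elsewhere. Called or sign-changing values of the receptors that rest on it are given with and without it. For the listed genes of each pathway, a value without it is given where a named fold moved by over 1.5 times. Such a value is also given where a named call between days in WT cells or between genotypes at day 0 was lost or gained. Counts of calls without it are given for some lists and comparisons only. The 9 osteoblast markers summed to 29000 to 43500 normalized CPM in the libraries of WT cells at day 0 and to 81600 to 97600 at day 12, and in Def6-/- cells to 40200 to 43300 and to 100000 to 116000. Bglap alone among them was at 0 reads at day 0 in both genotypes. Of the 9 markers, 5 rose and 0 fell in each genotype (adjusted p under 0.05, limma with Benjamini-Hochberg adjustment). Spp1 had differences of -0.76 in WT cells, or -0.056 without WT replicate 1 at day 0, and -0.1 in Def6-/- cells. Runx2, Sp7 and Col1a1 had differences between 0.28 and 1.38 and, like Spp1, were not called. The 14 macrophage markers with intact read values summed to 189 to 415 normalized CPM at day 0 and to 3220 to 6400 at day 12. With Ptprc, whose values are not all whole reads, 14 of 15 rose in WT cells and 13 of 15 in Def6-/- cells (adjusted p under 0.05, limma with Benjamini-Hochberg adjustment). Ptprc was the marker not called in WT cells, and it was not called in Def6-/- cells either. The endothelial and muscle markers summed to at most 13.1 and 13.9 normalized CPM in any library. Adipocyte markers summed to at most 2.37 normalized CPM at day 0, to 14.7 to 18.1 in WT cells at day 12 and to 43.9 to 65.7 in Def6-/- cells at day 12, and markers of T and B cells were at 0 reads in every library. In bulk RNA, a change in the number of cells of a type and a change in RNA per cell cannot be told apart, and the part of macrophages and adipocytes in the day changes given here was not tested.

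The 9 genes lie on 6 chromosomes of the mouse genome (GRCm38, GENCODE M21), and 6 of them form pairs of neighbours of a thyroid hormone or vitamin D receptor with a retinoic acid receptor. Thra (11:98740638-98769006) and Rara (11:98927818-98974942) are 159 kb apart on the plus strand of chromosome 11. Thrb (14:17660261-18038090, plus strand) and Rarb (14:16430839-16819156, minus strand) are 841 kb apart on chromosome 14. Vdr (15:97854425-97910630) and Rarg (15:102234938-102257517) are 4320 kb apart on the minus strand of chromosome 15. Pth1r lies on chromosome 9 (110722085-110747145, minus strand) and Esr1 on chromosome 10 (4611593-5005614, plus strand). The strand setting of the counting is not given in the sources used here, and 3 of the genes share exon bases with a gene on the opposite strand. Rarb shares 34.1% of its exon bases with Top2b, Thra 5.7% with Nr1d1 and Pth1r 3.25% with Myl3, so that reads from these stretches cannot be assigned with certainty.

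Promoter windows of 250 bases before a transcript start, taken from RefSeq (GRCm38.p6), were used for 7 of the 9 genes, with 15 windows in all. No window was available for Thra, and Nr3c1 was left out of this search, so its promoter was not examined. Each window was searched on both strands for AGGTCA, the core read by many nuclear receptors, for AGTTCA, a variant of it, and for AGAACA, a core read by the glucocorticoid receptor. Of all 32851 windows of this length, 14% hold AGGTCA, 11.8% hold AGTTCA and 16.1% hold AGAACA. Windows are shown for Pth1r, whose level per kb was the highest at day 12, and for Thrb, which was called between genotypes at day 0. Pth1r has 3 windows, of which windows 1 and 2 hold none of the 3 cores and 4 and 1 matches to GGGCGG, a core of GC boxes found in 32.7% of all windows. Its window 3, that of the start farthest upstream, and both windows of Thrb are printed for the stretch that overlaps no annotated exon, with the 3 cores in capitals.
Pth1r, upstream start, chr9:110747146-110747395, minus strand: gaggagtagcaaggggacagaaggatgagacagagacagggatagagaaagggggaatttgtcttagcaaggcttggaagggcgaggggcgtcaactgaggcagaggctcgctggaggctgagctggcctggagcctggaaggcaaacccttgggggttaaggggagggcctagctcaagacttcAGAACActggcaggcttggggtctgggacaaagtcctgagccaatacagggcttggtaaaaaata
Thrb, start 1, chr14:17660710-17660891, plus strand: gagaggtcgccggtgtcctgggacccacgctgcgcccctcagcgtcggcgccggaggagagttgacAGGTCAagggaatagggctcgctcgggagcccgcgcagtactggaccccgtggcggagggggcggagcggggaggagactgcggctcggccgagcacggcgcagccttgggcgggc
Thrb, start 2, chr14:17981394-17981528, plus strand: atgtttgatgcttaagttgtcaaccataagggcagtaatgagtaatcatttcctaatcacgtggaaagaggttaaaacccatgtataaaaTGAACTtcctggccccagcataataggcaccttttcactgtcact
In the Pth1r window, AGAACA begins 65 bases before the start. The whole window of Thrb start 1 has a GC content of 71.6%, above the median of 52.4% over all windows, with AGGTCA 184 bases before the start and 3 matches to GGGCGG. The whole window of Thrb start 2 has a GC content of 44%, with AGTTCA on the opposite strand 160 bases before the start and TATAAA, found in 12.4% of all windows, beginning 167 bases before it. It also holds AGAACA on the opposite strand 23 bases before the start and on the gene's own strand 7 bases before it, both outside the stretch printed. These matches are letters in a window and were not tied to binding in these cells.

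Between genes, levels were compared per kb of exon. In WT cells at day 0, Rarg stood highest with 42 normalized CPM per kb. Nr3c1 with 15.8, Pth1r with 12.6, Thra with 11.5 and Rara with 9.68 followed, and the libraries of each of these overlapped those of its neighbour. Vdr came below them with 4.65, and Rarb (0.43), Thrb (0.149) and Esr1 (0.0677) made up the low end. In Def6-/- cells at day 0 Rarg with 44.7 and Nr3c1 with 19.1 again stood highest. Thra with 12.8 came above Pth1r with 11.3 there, with overlapping libraries, and Thrb with 0.772 stood above Rarb with 0.337. The order differed at day 12. Pth1r then stood first in WT cells with 49.8 normalized CPM per kb, followed by Thra with 39.7, Rarg with 32.1 and Nr3c1 with 27, with no overlap between neighbours. In Def6-/- cells at day 12 the means were 70 for Pth1r, 41.8 for Thra, 31.3 for Rarg and 28.5 for Nr3c1, and only the libraries of Rarg and Nr3c1 overlapped among these 4. Rara and Vdr kept the places below these genes in all 4 groups. Esr1 had the lowest mean of the 9 in every group, between 0.0677 and 0.276. In Def6-/- cells at day 12 its libraries (0.24 to 0.313) overlapped those of Rarb (0.234 to 0.568).

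**Figure D1:**
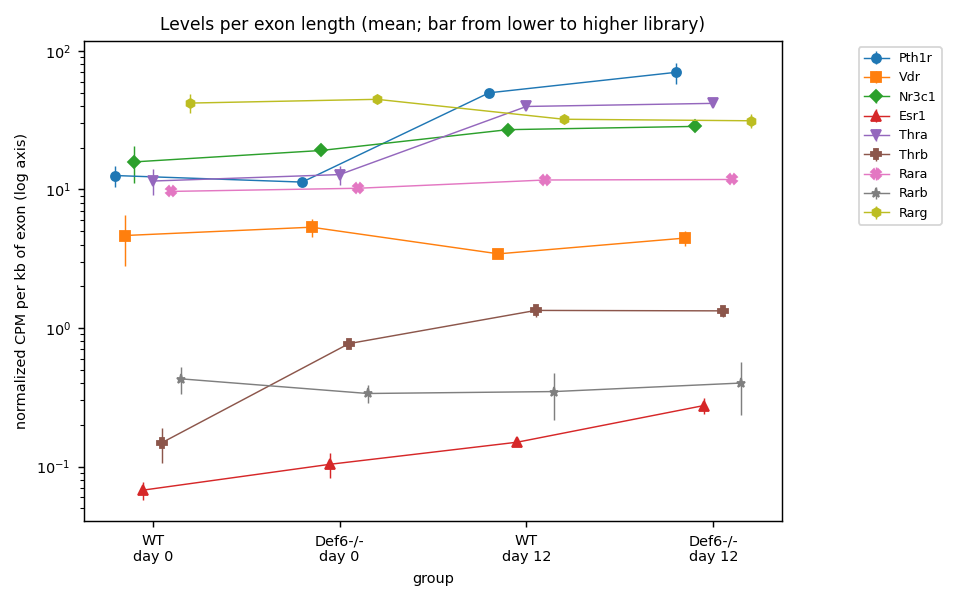
Mean normalized CPM per kb of exon (log axis) of the 9 receptor genes in the 4 groups, with bars from the lower to the higher of the 2 libraries. Pth1r goes from 12.6 to 49.8 in WT cells and from 11.3 to 70 in Def6-/- cells, and Thrb stands at 0.149 in WT cells and 0.772 in Def6-/- cells at day 0.

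Differences were fitted with limma on log2(normalized CPM + 1) over 12348 genes, those whose deposited CPM averaged 1 or more in any of the 4 groups, with all 8 libraries in 1 fit. On this scale the change of genes with few reads is understated. Of the 9 receptors, 8 passed this filter. Rarb did not, and Esr1 passed through Def6-/- cells at day 12 alone. A day difference was called at an adjusted p under 0.05, and a genotype difference at an unadjusted p under 0.05 with a change over 1.2-fold. From day 0 to day 12, 3 receptors were called in WT cells, all higher, where 18.3% of all genes tested were called, 12.7% higher and 5.63% lower. In Def6-/- cells 2 receptors were called, both higher, where 16.8% of genes were called, 12% higher and 4.79% lower. Between genotypes 1 receptor was called at day 0, higher in Def6-/- cells, where 2.3% of genes were called, 0.988% higher and 1.31% lower. At day 12 0 were called, where 1.4% of genes were, 0.81% higher and 0.591% lower. For the difference between genotypes in the day change 1 receptor was called, with the lower change in Def6-/- cells, where 1.12% of genes were called, 0.696% higher and 0.421% lower. Genotype calls of all genes depended on scaling in their direction: 43% of the day 0 calls were higher in Def6-/- cells with normalized values and 72.3% with the deposited CPM, and at day 12 these shares were 57.8% and 70%. With Benjamini-Hochberg adjustment over all genes (limma), 0 receptors differed between genotypes at day 0 or at day 12, where 0.0081% of genes did on each day, and p-values of this design measure only the spread between 2 libraries per group. With 2 libraries per group, groups without overlap are common. Between days 55.9% of genes tested did not overlap in WT cells and 67.7% in Def6-/- cells. Between genotypes 22.6% did not overlap at day 0 and 32.7% at day 12.

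**Figure D2:**
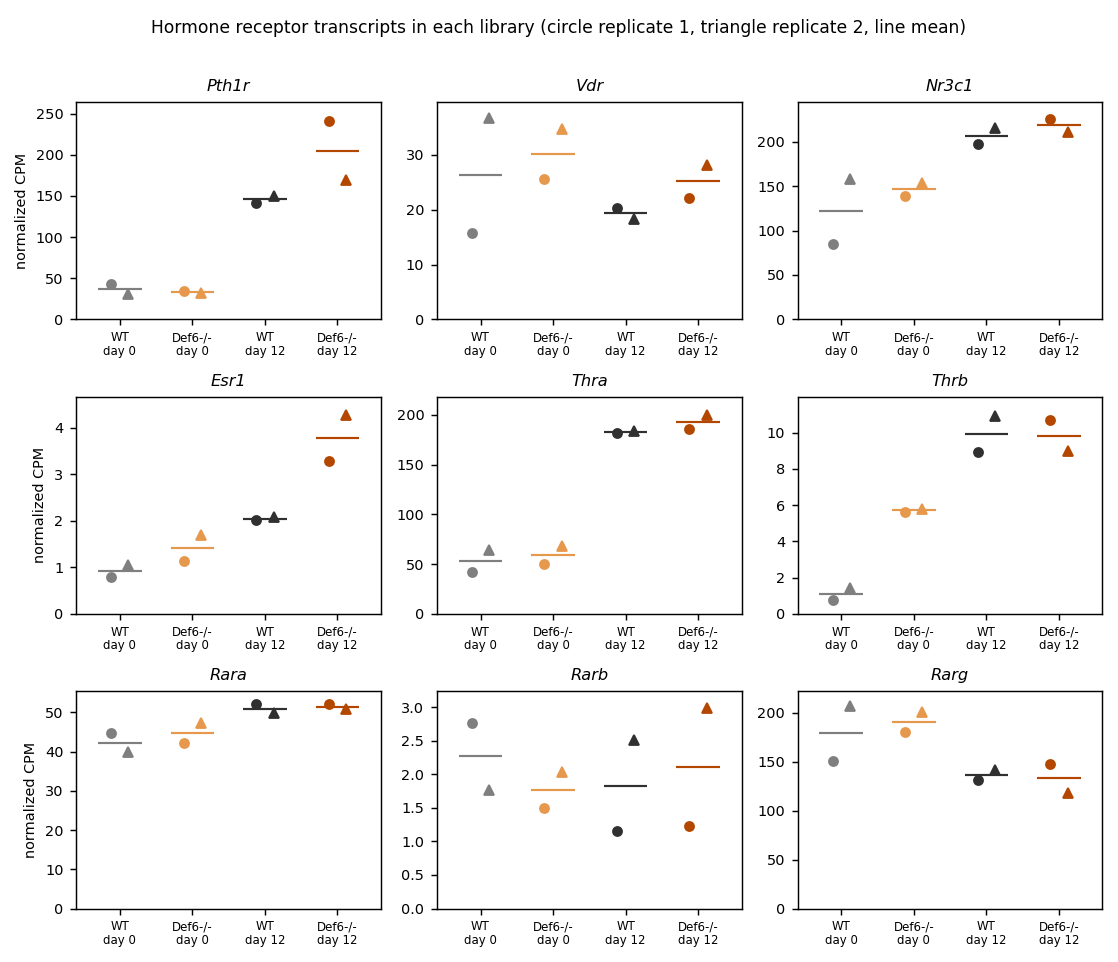
Normalized CPM of each receptor gene in the 8 libraries, by group, with 1 point for each library and a line at the mean of 2. The libraries at day 12 lie above all those at day 0 for Pth1r, Nr3c1, Esr1, Thra, Thrb and Rara. Thrb is lowest in WT cells at day 0 and intermediate in Def6-/- cells at day 0.

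Pth1r, the receptor for parathyroid hormone and its related peptide, rose over the 12 days in both genotypes. WT replicates 1 and 2 had 43.4 and 30.4 normalized CPM at day 0, then 142 and 150 at day 12. Def6-/- replicates had 34.2 and 32 at day 0, then 241 and 169 at day 12. The days did not overlap in either genotype, and at day 12 both Def6-/- libraries lay above both WT libraries, as for 16.8% of genes tested. The log2 difference between days was 1.97 (SE 0.24, 95% interval 1.43 to 2.52) in WT cells, a 3.93-fold change, and 2.57 (SE 0.24, 2.03 to 3.11) in Def6-/- cells, a 5.94-fold change. The group means at day 12 were 146 ± 5.95 in WT cells and 205 ± 50.9 in Def6-/- cells (SD, n = 2). The genotype difference at day 12 was 0.47 (SE 0.24, -0.076 to 1.01) and was not called, although it was called in 4 of 16 other settings, among them the fit without Def6-/- replicate 2 at day 12 (0.72). The difference between genotypes in the day change was 0.6 (SE 0.34, -0.17 to 1.36) and was not called. The WT day difference was 2.22 without WT replicate 1 at day 0, and the difference in day change was 0.34.

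Of 25 listed genes of parathyroid hormone signalling, 20 passed the filter, and 6 rose and 1 fell in WT cells while 5 rose and 1 fell in Def6-/- cells. WT cells had a median day change of 0.17 over this list and Def6-/- cells one of 0.12, beside -0.00096 and 0.0098 over all genes tested. Without WT replicate 1 at day 0, from which the spread is estimated as well, 8 rose and 2 fell in Def6-/- cells. The genes that rose in both genotypes act largely as brakes or adaptors of the receptor. Arrb1, an arrestin that uncouples activated receptors from G proteins, rose by 1.95 in WT cells and 1.76 in Def6-/- cells (adjusted p = 0.004 and 0.0064, limma with Benjamini-Hochberg adjustment). Arrb2, the second arrestin of this kind, rose by 1.43 and 1.78, and Rgs2, which shortens G protein signals, by 1.89 and 2.01. Slc9a3r1, a scaffold protein that binds the tail of Pth1r, rose by 1.44 and 1.41. The cyclic AMP phosphodiesterase Pde4d fell by 1.15 in WT cells (adjusted p = 0.01, limma with Benjamini-Hochberg adjustment), and its relative Pde4b fell by 1.42 in Def6-/- cells (adjusted p = 0.029). Prkacb, a catalytic subunit of protein kinase A, rose by 0.63 in WT cells. In the other genotype the differences were -0.76 for Pde4d, -0.66 for Pde4b and 0.35 for Prkacb, and none was called. The difference between genotypes in the day change was not called for Pde4d, Pde4b or Prkacb. The ligands themselves were at or near 0, with 0 reads of Pth in every library and 0 to 2 reads of Pthlh, the local ligand of bone and cartilage.

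Vdr, the receptor for active vitamin D, was not called in any comparison and varied widely between replicates. WT replicates had 15.8 and 36.7 normalized CPM at day 0, then 20.4 and 18.4 at day 12, and Def6-/- replicates had 25.6 and 34.7 at day 0, then 22.2 and 28.2 at day 12. The lowest value was that of the WT library that stood apart, and the groups overlapped between days in both genotypes. The log2 difference between days was -0.3 (SE 0.37, -1.15 to 0.54) in WT cells and -0.24 (SE 0.37, -1.09 to 0.6) in Def6-/- cells, and neither was called. Without WT replicate 1 at day 0 the WT difference was -0.89 and was called. Genotype differences were 0.29 (SE 0.37, -0.55 to 1.13) at day 0 and 0.35 (SE 0.37, -0.49 to 1.19) at day 12, and the day 0 value was -0.29 without that library and 0.88, then called, without WT replicate 2.

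Of 16 listed genes of vitamin D supply and action, 9 passed the filter, and 3 rose and 1 fell in each genotype, with a median day change of 0.64 in WT and 0.43 in Def6-/- cells. Cyp24a1, which breaks down active vitamin D and is the best known target of the receptor, had 0 reads in all 8 libraries. Bglap, which encodes the bone matrix protein osteocalcin, had 0 reads at day 0 in both genotypes and means of 6.93 normalized CPM in WT cells and 16.5 in Def6-/- cells at day 12. Its near-identical copy Bglap2 had 4.89 and 18.1 at day 12, and reads shared between the copies could be split in either way. Both met the call between genotypes at day 12 (log2 difference 1.13 with SE 0.34 for Bglap and 1.64 with SE 0.38 for Bglap2) with an adjusted p of 1 (limma with Benjamini-Hochberg adjustment). Lrp2, a receptor that takes up vitamin D bound to its carrier, fell by 3.11 in WT cells and by 3.14 in Def6-/- cells (adjusted p = 0.0018 and 0.0017, limma with Benjamini-Hochberg adjustment). Cyp27a1, a hydroxylase of vitamin D and sterols, had a mean of 0.374 normalized CPM at day 0 and 3.33 at day 12 in WT cells, and 0.358 and 2.31 in Def6-/- cells, and was called higher in both.

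Nr3c1, the glucocorticoid receptor (18:39410545-39519421, minus strand), had the highest normalized CPM among the nuclear receptors at day 12, not corrected for length. WT replicates had 85.2 and 158 normalized CPM at day 0, then 198 and 216 at day 12, and Def6-/- replicates had 139 and 154 at day 0, then 226 and 211 at day 12. In both genotypes the 2 libraries of day 12 lay above those of day 0, and the WT library that stood apart was the lowest. Libraries of day 12 lay above those of day 0 for 29.3% of genes tested in WT cells and 35.2% in Def6-/- cells. The log2 difference between days was 0.83 (SE 0.26, 0.23 to 1.43) in WT cells and 0.58 (SE 0.26, -0.023 to 1.18) in Def6-/- cells, and neither was called. Without WT replicate 1 at day 0 the WT value was 0.39, and without WT replicate 2 it was 1.27 and was called. The value in Def6-/- cells was called in 3 of 16 other settings, among them the fits without either WT library of day 0, from which the spread is estimated as well. The genotype differences were 0.33 (SE 0.26, -0.27 to 0.93) at day 0, which became -0.11 without WT replicate 1 and 0.77, then called, without WT replicate 2, and 0.079 (SE 0.26, -0.52 to 0.68) at day 12.

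Of 20 listed genes of glucocorticoid supply, chaperones and targets, 18 passed the filter, with 2 higher and 4 lower in WT cells and 2 higher and 2 lower in Def6-/- cells. Their median day change was -0.19 in WT and -0.16 in Def6-/- cells. In Def6-/- cells 4 were higher and 8 lower without WT replicate 1 at day 0. Hsd11b1, which makes active glucocorticoid from its inert form inside cells, went from 0.374 to 5.29 normalized CPM in WT cells and from 0.529 to 7.12 in Def6-/- cells and was called higher in both. Angptl4, a lipase inhibitor induced by glucocorticoids and by other signals, rose by 2.24 and 2.21 (adjusted p = 0.00043 and 0.00046, limma with Benjamini-Hochberg adjustment). Targets of the receptor did not move one way. Dusp1, a phosphatase that damps MAP kinases, fell by 2.43 in WT cells and by 2.46 in Def6-/- cells (adjusted p = 0.0007 and 0.00066, limma with Benjamini-Hochberg adjustment). Fkbp5, a chaperone that lowers the affinity of the receptor for its ligand, fell by 1.17 in WT cells, and its difference in Def6-/- cells of -0.86 was not called (adjusted p = 0.062, limma with Benjamini-Hochberg adjustment). Hsp90aa1, a chaperone that holds the receptor ready for ligand, fell by 1.27 in WT cells and by 1 in Def6-/- cells, and Sgk1, a kinase induced by steroids, fell by 1.27 in WT cells. The Sgk1 difference in Def6-/- cells was -1.01 and was not called. Tsc22d3, a target that mediates anti-inflammatory effects, had differences of -0.049 and 0.32, and Klf9, a target of glucocorticoid and thyroid hormone receptors, had 0.42 and 0.43, and none of these was called.

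Esr1, the main estrogen receptor of bone, was near the limit of detection. WT replicates had 2 and 3 reads at day 0, then 7 and 5 at day 12, and the Def6-/- replicates had 3 and 5 at day 0 with 8 and 10 at day 12. The 2 Def6-/- libraries at day 12 held the most reads, at 3.28 and 4.27 normalized CPM. The ratio of read rates between days was 2.1 in WT cells (exact 95% interval 0.689 to 7.61, counting error only) and 2.44 in Def6-/- cells (1.01 to 6.48). Between genotypes it was 1.57 (0.454 to 6.11) at day 0 and 1.82 (0.831 to 4.15) at day 12. A difference between groups was thus not detectable at this depth except near the edge of 1 interval, and the fitted differences, from 0.32 to 0.99, were not called.

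Of 16 listed genes of sex steroid supply and action, 10 passed the filter, with 2 higher and 2 lower in WT cells and 2 higher and 1 lower in Def6-/- cells, and a median day change of 0.043 in WT cells, which became -0.066 without WT replicate 1 at day 0, and of 0.25 in Def6-/- cells. Esr2, the other estrogen receptor, had 0 to 6 reads in a library. Gper1, a membrane receptor reported to bind estrogen, rose by 1.97 in WT cells and by 1.86 in Def6-/- cells (adjusted p = 0.0022 and 0.0029, limma with Benjamini-Hochberg adjustment). Hsd17b1, which makes estradiol, fell by 2.14 in WT cells, from 6.51 to 0.772 normalized CPM, and stood at 6.71 and 2.5 in Def6-/- cells. It met the call between genotypes at day 12 with a log2 difference of 1.03 (SE 0.41, adjusted p = 1, limma with Benjamini-Hochberg adjustment). Hsd17b11 rose by 1.08 and 0.92, and Hsd17b12 fell by 0.68 in WT cells and by 0.7 in Def6-/- cells.

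The 2 thyroid hormone receptors had different patterns. Thra, which encodes the form most abundant in bone, rose in both genotypes, to means of 183 ± 1.82 normalized CPM in WT and 193 ± 9.76 in Def6-/- cells (SD, n = 2). WT replicates had 41.8 and 64.7 normalized CPM at day 0, then 182 and 184 at day 12, and Def6-/- replicates had 50 and 68.1 at day 0, then 186 and 200 at day 12. The days stood far apart and the genotypes overlapped at day 0. The log2 difference between days was 1.79 (SE 0.24, 1.25 to 2.34) in WT cells, a 3.47-fold change, and 1.71 (SE 0.24, 1.16 to 2.25) in Def6-/- cells, a 3.26-fold change. Without WT replicate 1 at day 0 the WT value was 1.49 and was called, and the call was made in all 16 other settings in both genotypes. The genotype difference was 0.16 (SE 0.24, -0.39 to 0.71) at day 0, -0.14 without WT replicate 1 and 0.47, then called, without WT replicate 2, and 0.075 (SE 0.24, -0.47 to 0.62) at day 12.

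Thrb, the receptor form best known from liver, pituitary and inner ear, had more reads in Def6-/- than in WT libraries before osteogenic medium was given. WT replicates had 2 and 4 reads at day 0, or 0.789 and 1.41 normalized CPM, while Def6-/- replicates had 15 and 17 reads, or 5.64 and 5.79. At day 12, WT replicates had 31 and 26 reads, or 8.9 and 10.9 normalized CPM, and Def6-/- replicates had 26 and 21 reads, or 10.7 and 8.97. The WT libraries of day 0 were thus low, the Def6-/- libraries of day 0 were intermediate, and the genotypes overlapped at day 12. The ratio of read rates, Def6-/- over WT, was 5.24 at day 0 (exact 95% interval 2.16 to 15.3, counting error only) and 1 at day 12 (0.666 to 1.5). The fitted log2 difference at day 0 was 1.69 (SE 0.31, 0.98 to 2.4), a 3.23-fold change on this scale, and it ranked 1 among the 12348 genes tested from the highest. It was not past the Benjamini-Hochberg adjustment over all genes (limma). Thrb was named with such values in view, so its ranks and calls restate that choice and are a description. The day change was 2.38 (SE 0.31, 1.67 to 3.1) in WT cells, which was called, and 0.68 (SE 0.31, -0.028 to 1.39) in Def6-/- cells, which was not. The day change of Def6-/- cells minus that of WT cells was -1.7 (SE 0.44, -2.71 to -0.69), the 4th from the lowest of 12348 genes. Without WT replicate 1 at day 0 these values were 1.48 for the genotype difference at day 0, 2.17 for the WT day change and -1.48 for the difference in day change, and each was called.

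The fitted size of the Thrb difference varied with the method. Across 16 other settings the genotype difference at day 0 lay between 1.15, with CPM as deposited, and 2.36, with DESeq2 on recovered reads, and it was called in all 16. Of 5 other tested genes within 1000 kb of Thrb, among them the clock receptor Nr1d2, 0 were called at day 0 with all libraries. Their differences lay between -0.57 for Nkiras1 and 0.2 for Nr1d2. Without WT replicate 1 the Nr1d2 difference was 0.61 and was called. Replicate 1 of Nr1d2 was the higher in both genotypes at day 0. The values were 57.6 and 32.5 normalized CPM in WT cells and 65.5 and 38.1 in Def6-/- cells. That fit thus set both Def6-/- replicates against WT replicate 2 alone. As a share of both thyroid hormone receptors per kb, Thrb made up 1.16% and 1.34% in WT cells and 6.57% and 5.03% in Def6-/- cells at day 0. At day 12 the shares were 2.96% and 3.55% in WT cells and 3.45% and 2.72% in Def6-/- cells. Thra was therefore the predominant transcript in every library, and the share of Thrb was highest in Def6-/- cells at day 0.

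**Figure D3:**
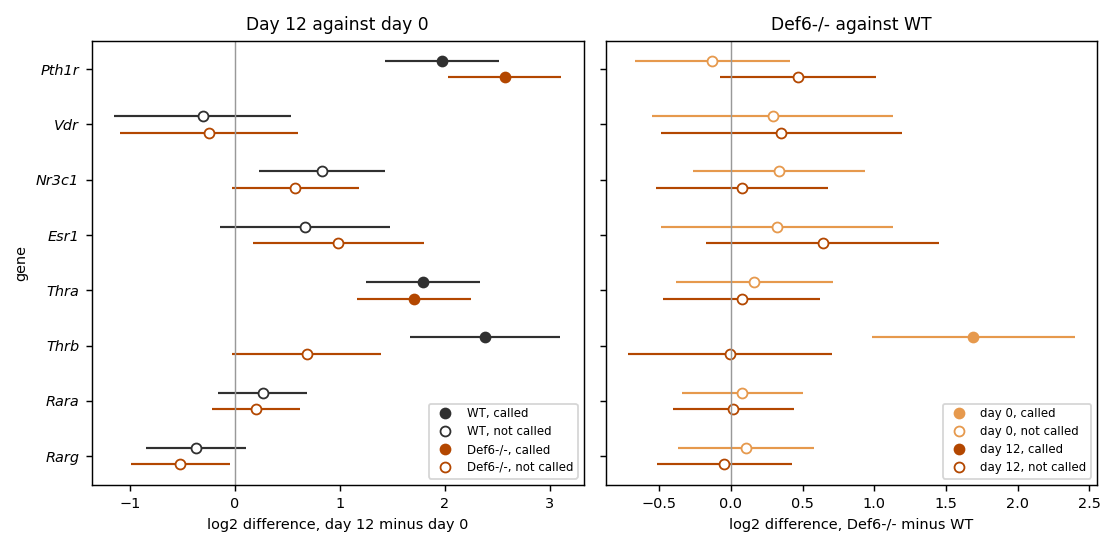
Fitted log2 differences with 95% intervals of the 8 receptors that passed the filter, for day 12 minus day 0 in each genotype (left) and Def6-/- minus WT on each day (right), with filled points where the difference was called. Thrb at day 0 is the filled point on the right at 1.69, and Pth1r and Thra are filled in both genotypes on the left.

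Of 17 listed genes of thyroid hormone supply and action, 12 passed the filter, and 4 rose and 1 fell in each genotype. Their median day change was 0.72 in WT and 0.66 in Def6-/- cells, and without WT replicate 1 at day 0 6 rose and 2 fell in Def6-/- cells. With all libraries, 0 of the 12 met the call between genotypes on either day. Dio2, the deiodinase that makes active thyroid hormone inside cells, had 0 and 2 reads in WT cells and 1 and 2 reads in Def6-/- cells at day 0. At day 12 it had 46 and 43 reads in WT cells and 61 and 31 in Def6-/- cells, or means of 15.6 and 19.1 normalized CPM, and it was called higher in both. Hr, which encodes the corepressor hairless and is a known target of thyroid hormone, rose by 3.72 and 3.15 (adjusted p = 0.00014 and 0.00033, limma with Benjamini-Hochberg adjustment), from 3.76 to 61.4 normalized CPM in WT cells and from 6.54 to 63.5 in Def6-/- cells. Its genotype difference at day 0, where Thrb was called, was 0.61 and was not called, and was 0.79 and called without WT replicate 1. Slc7a5, an amino acid transporter that also carries thyroid hormone, fell by 3.59 in WT cells and fell by 3.13 in Def6-/- cells. Dio3, the deiodinase that inactivates the hormone, had means between 8.19 and 14.7 normalized CPM in the 4 groups and was not called, and Dio1 had 0 reads throughout. Fgfr1 rose by 0.78 in WT cells, and Slc16a10, a transporter of aromatic amino acids and thyroid hormone, rose by 1.31 in Def6-/- cells. In the other genotype the differences were 0.61 for Fgfr1 and 0.74 for Slc16a10, and neither was called. Nr1d1, a clock receptor and target of thyroid hormone that overlaps Thra on the opposite strand, had day differences of 0.7 in both genotypes that were not called. The WT one was 1.35 and called without WT replicate 1 at day 0. Replicate 1 of Nr1d1 was the higher at day 0 in both genotypes. The values were 55.3 and 21.9 normalized CPM in WT cells and 62.5 and 24.2 in Def6-/- cells.

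**Figure D4:**
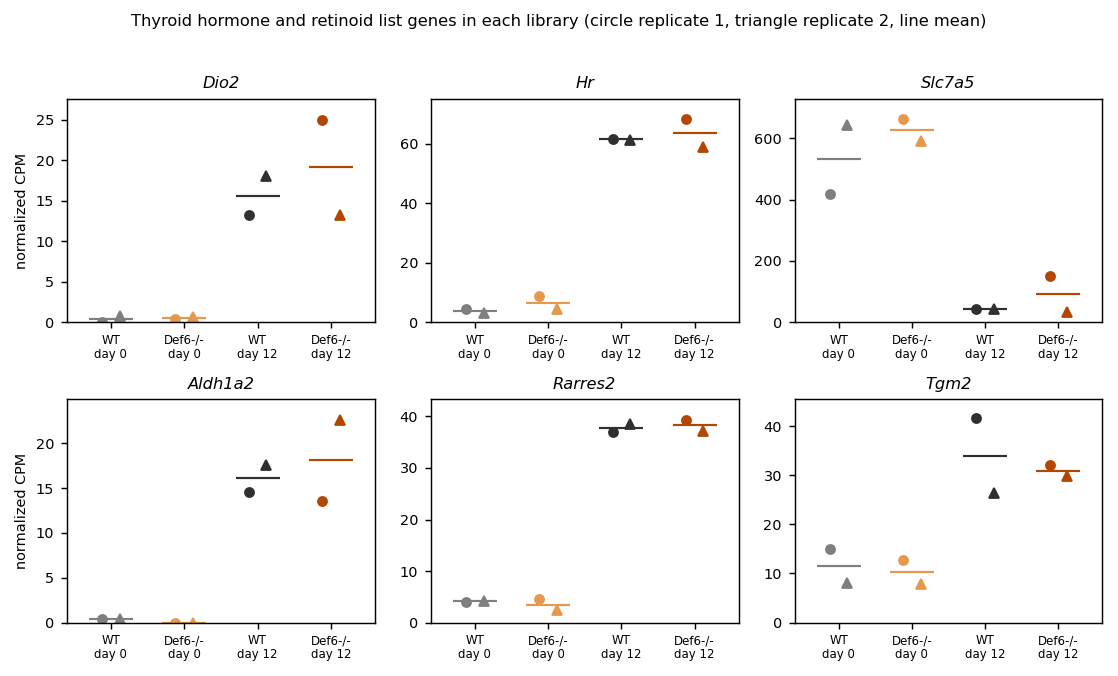
Normalized CPM in the 8 libraries of 3 genes of the thyroid hormone list (Dio2, Hr, Slc7a5) and 3 of the retinoid list (Aldh1a2, Rarres2, Tgm2), with 1 point for each library and a line at the mean of 2. Slc7a5 is lower at day 12 than at day 0 and the other 5 genes are higher, in both genotypes.

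Among the retinoic acid receptors, Rarg stood highest in every library and its share was lower at day 12 than at day 0 in both genotypes. Rarg, which is prominent in cartilage and bone precursors, had 151 and 207 normalized CPM in WT replicates at day 0, then 131 and 142 at day 12. Def6-/- replicates had 180 and 201 at day 0, then 148 and 118 at day 12. The libraries of day 12 lay below those of day 0 in both genotypes, as for 26.6% of genes tested in WT cells and 32.4% in Def6-/- cells. The log2 difference was -0.37 (SE 0.21, -0.84 to 0.1) in WT cells and -0.52 (SE 0.21, -0.99 to -0.046) in Def6-/- cells, and neither was called. Without WT replicate 1 at day 0 both were called, at -0.6 and -0.52. As a share of the 3 receptors per kb, Rarg made up 76.7% and 83.7% in WT cells and 81% and 80.8% in Def6-/- cells at day 0, and 71.8% and 73.7% and then 74.1% and 69.5% at day 12. The summed cartilage markers went from 1900 to 3740 normalized CPM at day 0 to 773 to 1140 at day 12, a sum that is mostly Col2a1, the collagen of cartilage matrix, which fell by 1.5 in WT cells and by 1.86 in Def6-/- cells. The list itself was split, since of 4 tested markers 1 was higher and 1 lower in WT cells and 2 were higher and 2 lower in Def6-/- cells, with Col10a1, a collagen of hypertrophic cartilage, up by 2.28 and 2.37. The part of cartilage cells in the Rarg values was not tested.

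Rara, the most widely expressed form, stayed between 39.9 and 52.1 normalized CPM in all libraries. WT replicates had 44.6 and 39.9 normalized CPM at day 0, then 52 and 49.8 at day 12, and Def6-/- replicates had 42.1 and 47.3 at day 0, then 52.1 and 50.8 at day 12. Its values at day 12 were just above those at day 0, and the genotypes overlapped on both days. Of genes tested, 29.3% had both day 12 libraries above those of day 0 in WT cells and 35.2% in Def6-/- cells. The log2 difference between days was 0.26 (SE 0.19, -0.16 to 0.69) in WT cells and 0.2 (SE 0.19, -0.22 to 0.62) in Def6-/- cells, and that between genotypes 0.08 (SE 0.19, -0.34 to 0.5) at day 0 and 0.016 (SE 0.19, -0.41 to 0.44) at day 12. Rarb, which is itself a classical target of retinoic acid, had 3 to 7 reads in each of the 8 libraries. Its ratio of read rates between days was 0.73 (exact 95% interval 0.282 to 1.84, counting error only) in WT cells and 1.08 (0.404 to 2.9) in Def6-/- cells, so that no difference was detectable at this depth. Reads from the exon bases shared with Top2b cannot be told apart from reads of that gene.

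Of 21 listed genes of retinoid supply and action, 15 passed the filter, with 4 higher and 1 lower in WT cells and 5 higher and 0 lower in Def6-/- cells. Their median day change was 0.63 in WT and 0.89 in Def6-/- cells. Aldh1a2, which makes retinoic acid, had 1 read in each WT library and 0 reads in each Def6-/- library at day 0, and means of 16.1 normalized CPM in WT cells and 18.1 in Def6-/- cells at day 12. Rarres2, a gene named for its response to retinoids that encodes chemerin, rose by 2.93 and 3.18 (adjusted p = 0.00034 and 0.00023, limma with Benjamini-Hochberg adjustment). Tgm2, a crosslinking enzyme induced by retinoic acid and abundant in macrophages, rose by 1.5 and 1.53. Crabp1, which binds retinoic acid in the cytoplasm, rose by 1.96 in WT cells, and by 3.1 without WT replicate 1 at day 0, where replicate 1 had 82.1 and replicate 2 had 16.3 normalized CPM. Its difference in Def6-/- cells was 1.75 and was not called with all libraries. Between genotypes at day 0 the Crabp1 difference was -0.17, and it was 0.96 without WT replicate 1. The difference in day change was -0.21, and it was -1.35 without that library. Rdh10, which makes retinaldehyde, fell by 0.96 in WT cells, and by 0.93 without WT replicate 1 at day 0, where the call was lost. Aldh1a1 rose by 1.27 in Def6-/- cells. In the other genotype the differences were -0.12 for Rdh10 and 0.97 for Aldh1a1, and neither was called. Rbp4, the carrier of retinol, rose by 1.9 in Def6-/- cells and met the call between genotypes at day 12 with a log2 difference of 1.21 (SE 0.48, adjusted p = 1, limma with Benjamini-Hochberg adjustment). The day difference of Rbp4 in WT cells was 1.18 and was not called. Cyp26b1, which degrades retinoic acid and is a target of its receptors, had means between 90.2 and 111 normalized CPM in the 4 groups and was not called.

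Of 20 listed retinoid X receptors and coregulators 18 passed the filter, and 2 rose in each genotype, with a median day change of 0.25 in WT and -0.19 in Def6-/- cells. The WT median was -0.27 without WT replicate 1 at day 0, with 1 higher and 3 lower, and in Def6-/- cells 3 were higher and 3 lower. Tbl1xr1, an exchange factor of corepressor complexes, rose by 1.98 in WT cells and by 1.53 in Def6-/- cells (adjusted p = 0.0091 and 0.029, limma with Benjamini-Hochberg adjustment), and the WT value was 1.26 without that library. Ppargc1a, a coactivator of mitochondrial genes, had 0 reads in both WT libraries of day 0 and a mean of 2.25 normalized CPM at day 12, with means of 0.546 and 3.76 in Def6-/- cells, and its call in WT cells was lost without that library (adjusted p = 0.064, limma with Benjamini-Hochberg adjustment). Rxra, the shared partner, had means of 129 and 189 normalized CPM in WT cells and 139 and 188 in Def6-/- cells at day 0 and day 12, with day differences of 0.56 and 0.43 that were not called. At day 0 Tbl1x met the call between genotypes with a log2 difference of 0.7 (adjusted p = 0.91, limma with Benjamini-Hochberg adjustment). The WT libraries had 47.4 and 95 normalized CPM, the lower in the library that stood apart, and without it the difference was 0.21 and was not called.

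Of 40 other listed nuclear receptors 20 passed the filter, with 3 higher in WT cells and 3 higher and 1 lower in Def6-/- cells, and a median day change of 0.28 and 0.19. Nr1h3, a sterol receptor prominent in macrophages, rose by 2.63 and 2.3, Pparg, the regulator of fat cells, by 1.26 and 1.74, and Rora, an orphan receptor, by 1.07 and 0.9. Nr2f2 fell by 0.84 in Def6-/- cells, and its difference in WT cells was -0.515 and was not called. Between genotypes at day 0, Nr6a1 (1.06) and Nr4a2 (0.71) were higher and Nr2f1 (-0.55) was lower in Def6-/- cells at the unadjusted call, each with an adjusted p of 0.91 (limma with Benjamini-Hochberg adjustment). The value of Nr4a2 was 0.5 without WT replicate 1 and was not called. Of 27 other hormone receptors of the cell surface 16 passed, with 3 higher and 2 lower in WT cells and 4 higher and 1 lower in Def6-/- cells, and a median day change of 0.64 and 0.44. When WT replicate 1 at day 0 was left out, 5 were higher and 4 lower in WT cells and 6 higher and 3 lower in Def6-/- cells. Igf1r, the receptor of insulin-like growth factor, fell by 1.57 in WT cells and by 1.77 in Def6-/- cells (adjusted p = 0.0014 and 0.00082, limma with Benjamini-Hochberg adjustment). Prlr, the prolactin receptor, rose by 2.82 and 2.52, and Ramp1, a partner of the calcitonin-like receptor, by 2.06 and 2.95. Lepr, the leptin receptor, fell by 1.02 in WT cells, and Npr1, a natriuretic peptide receptor, rose by 1.59 in Def6-/- cells. In the other genotype the differences were -0.56 for Lepr and 1.23 for Npr1, and neither was called.

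The tested genes with the pattern most like each receptor were found by Pearson correlation of log2(normalized CPM + 1) over the 8 libraries, given with no p since the libraries share groups and days. For Pth1r it was Phospho1, a phosphatase of matrix mineralization, with r = 0.996. For Thra it was Efs with r = 0.999, followed by the collagen-processing protease Adamts2 and the Wnt receptor Fzd1 with 0.998 each. Rarg was most like Polrmt with 0.995 and Nr3c1 like Dnmt3a, Sh3pxd2b and Unc5a with 0.992 each. For Rara it was Fam19a2 with 0.991, for Vdr Farp2 and Smchd1 with 0.982 each, and for Esr1 Slitrk2 with 0.982. Thrb had the lowest best match, 0.973 with Acbd3 and with Tert, which encodes the catalytic subunit of telomerase.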

How the data were processed

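Poly-A RNA of 8 libraries was sequenced. The authors used fastp for trimming, HISAT2 for alignment to mm10, HTSeq for counting and edgeR for the CPM they deposited; versions, annotation and strand setting are not given in the sources used here. The deposited CPM are relative to all reads handled, of which 5 rows that name no gene held 64.7% to 71.2%, and these rows were left out. Values were whole multiples of 1 read (within 0.05 reads) for 99.959% of 114821 positive values; the other 47 values lie in 9 macrophage and osteoclast markers and in none of the receptors, and reads were recovered accordingly. CPM were rescaled to reads on genes with TMM factors and tested with limma 3.58.1 (lmFit, eBayes with trend) on log2(CPM + 1), in R 4.3.3, with no block. Genes whose deposited CPM averaged 1 or more in any group were kept. Count tests with edgeR 4.0.16 (quasi-likelihood) and DESeq2 1.42.0 on recovered reads were alternatives. The fit was tested on simulated data with 200 changed genes. The simulation gave all genes the same spread and changed only genes above a floor of reads, in 1 group. It held no library that stood apart, so it could not test such a library or changes in genes with few reads.

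The receptors and all gene lists were chosen with earlier results of these data known. The text names all 9 receptors, up to 6 called genes with the smallest p from each list and comparison, and a fixed set of further genes, with the 3 most similar genes for each receptor at most. Pth, Dio1 and Dio3, and Nkiras1 as the lowest neighbour of Thrb, were added after their values were seen. Some genes under this rule are not reported here. Intervals of read ratios are exact and cover counting error only. Positions and exon lengths are from GENCODE M21 on GRCm38, the build of mm10, and promoter windows from RefSeq. Alternatives were other pseudocounts, no filter on low values, the deposited CPM, fits of the compared groups alone, a replicate block, both count tests and leaving out each library, where a lone library of a group is assumed to vary like the others. Leaving out a library was run for the listed genes as well, chosen after seeing the data.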

Additional observations from a re-analysis of the deposited data

Results flagged for a closer look

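The day change of Thrb differed between the genotypes: the change of Def6-/- cells minus that of WT cells was -1.7 on the log2 scale (SE 0.44, interaction term of limma, unadjusted p under 0.05 and over 1.2-fold, not past the Benjamini-Hochberg adjustment over 12348 genes). WT libraries went from 2 and 4 reads to 31 and 26, and Def6-/- libraries from 15 and 17 reads to 26 and 21. Thrb was among the receptors chosen with such values in view, so the difference is a description.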

How the results depend on the processing

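The calls of Pth1r and Thra between days in both genotypes, and those of Thrb between days in WT cells, between genotypes at day 0 and in the difference of day changes, were made under every alternative run. In fits of just the 4 libraries being compared, 4 receptors were called between days in Def6-/- cells (Nr3c1 and Rarg added to 2) and 1 between genotypes at day 12 (Pth1r, added to 0); this fit could not be made for the difference in day change. When 1 library was left out at a time, the counts were 3 to 5 receptors between days in WT cells, 2 to 4 in Def6-/- cells, 1 to 4 between genotypes at day 0, 0 to 1 at day 12 and 1 to 3 for the difference in day change. The highest counts came without WT replicate 1 at day 0 (5 in WT cells, with Vdr and Rarg added) or without WT replicate 2 at day 0 (4 between genotypes at day 0, with Vdr at 0.88, Nr3c1 at 0.77 and Thra at 0.47 added, and 3 for the difference in day change, with Pth1r at 0.85 and Nr3c1 at -0.69 added), and 4 in Def6-/- cells came without either. Pth1r was called between genotypes at day 12 without WT replicate 1 or 2 at day 0 or Def6-/- replicate 2 at day 12. The cause was not tested.

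No source used here says that a replicate number marks a shared litter or batch. Deviations of same-numbered libraries correlated across genes between 0.0023 and 0.33, with 0.33 between the genotypes at day 0, 0.15 between the days of Def6-/- cells and not every pair over 0.1, so the numbers were not taken as pairs, and whether the day 0 libraries share a batch was not tested. With a replicate block, 4 receptors were called between days in WT cells, with Nr3c1 added, and the other counts stayed at 2, 1, 0 and 1. Of the values of single receptors under the alternatives, 568 moved by less than the spread between replicates, 64 moved by more and 0 of those called changed sign. Many of the 568 could not move. By construction the fitted difference stays the same without the filter, with the compared groups alone and with the replicate block. It also stays the same when the library left out belongs to neither compared group. Of 128 day calls of listed genes, 1 to 39 were lost when 1 library was left out, and of 19 genotype and interaction calls 1 to 10, in fits of fewer libraries. When WT replicate 1 at day 0 was the one left out, day changes of Crabp1, Fgfr1, Fkbp5, Pde4d, Prkacb, Rxra and Sgk1 in Def6-/- cells were called at the values they had with all libraries. Over all genes, the calls between genotypes at day 12 numbered 173 with limma and 85 with DESeq2, and those of the difference in day change 138 and 45. Esr1, Rarb and WT Thrb at day 0 rest on 7 or fewer reads in most libraries, which limits what can be said of them.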
